A study of Rattus norvegicus with 4 samples.

Results

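The tumor necrosis factor (TNF) superfamily and its adaptors were followed in rat gracilis muscle, a thin muscle of the inner thigh, after ischemia and reperfusion. The members are the 45 probes whose gene name begins with Tnfsf, Tnfrsf or Traf and a digit, or is Tnf, Lta, Ltb, Fas, Faslg, Cd40, Cd40lg, Cd70, Tradd or Ripk1. They stand for 39 of the 35655 genes on the array. By role there were 13 ligands, 15 receptors and 7 adaptors. The other 4 genes were caught by a listed name that begins with a member's name. For Psmg2 (in the files Tnfsf5ip1), a proteasome assembly chaperone, and Knstrn (Traf4af1), a protein of the kinetochore, it is an older name. Traf3ip1 and Traf3ip3 are named as interaction partners of Traf3. All 4 are called partners here and count neither as ligands nor as adaptors. The files list Cd40 as Tnfrsf5, Fas as Tnfrsf6 and Relt as Tnfrsf19l.

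Total RNA came from male Sprague-Dawley rats whose gracilis muscle had 4 h of ischemia and then 1, 3, 7 or 14 days of reperfusion, and from sham-operated control muscle of the same strain and sex. Each day is 1 array with 2 colours, on which the injured muscle carried the red dye Cy5 and the sham muscle the green dye Cy3. There was 1 injured and 1 sham sample a day, no array with the dyes exchanged, and no statement whether the sham RNA was the same on all arrays, so no difference on a single day has a replicate or a test. A day, an array and an injured sample cannot be told apart, and neither can injury and the red dye. In whole muscle fewer cells of a type cannot be told apart from less RNA per cell. Ages, and whether a sample held 1 rat or several, are not given in the sources used here.

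Ligands of this superfamily are mostly made as membrane proteins that act on a neighbouring cell or are cut off to act at a distance. Their receptors either carry a death domain, through which Tradd, Ripk1 and caspases can start cell death, or bind TRAF proteins, which feed the NF-kB and stress kinase pathways. A few receptors, such as Tnfrsf11b, are decoys that only catch a ligand. In skeletal muscle the system is known for the wasting effect of TNF, for the pair of Tnfsf12 (TWEAK) and Tnfrsf12a (Fn14), which acts on muscle growth and atrophy, and for the signals that immune cells exchange after they enter damaged tissue.

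Some members carry 2 probes, and for the receptors Tnfrsf14 and Cd40 the 2-fold call of day 7 turns on which probe is read. The first 30 of the 60 bases of their probes are shown for that reason, and those of Tnfrsf12a because both of its probes gave the same call. The sequences are those of the scanner files, and no letter is marked.
Tnfrsf14, brighter probe: agtgtacctgacctgtcaaagctggtcttc
Tnfrsf14, dimmer probe: gctccttccagaccttctacatcgtcgttg
Cd40, brighter probe: atggaggaaaagctttggcgtcaggggtcc
Cd40, dimmer probe: actgcacagctcttgagaagacccaatgcc
Tnfrsf12a, brighter probe: ggggcagacagagagcctcaagctaggtca
Tnfrsf12a, dimmer probe: ggtttcctggtctggagacgatgccgccgg
In the rat build rn4, as the files give it, the brighter Tnfrsf14 probe lies at chr5:171727981-171728040 and the dimmer one at chr5:171729917-171729976. The brighter Tnfrsf12a probe lies at chr10:12940627-12940686 and the dimmer one at chr10:12940920-12941071, a span longer than its bases. These lie on the minus strand. The Cd40 probes lie on the plus strand, at chr3:156107231-156107290 (brighter) and chr3:156099429-156099488. Exon and UTR annotation of that build was not used here.

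The 250 bases before the start of 3 genes are shown next, since these genes had the highest ratio of all members on day 1 (Ltb), the lowest on day 14 (Tnfrsf12a) or, at a sham signal below the detection limit on every array, ratios that were highest late (Tnfrsf17). They come from RefSeq on the build GRCr8 and are written in the direction of the gene, and capitals mark matches to one of the 5 motifs named after them.
Ltb: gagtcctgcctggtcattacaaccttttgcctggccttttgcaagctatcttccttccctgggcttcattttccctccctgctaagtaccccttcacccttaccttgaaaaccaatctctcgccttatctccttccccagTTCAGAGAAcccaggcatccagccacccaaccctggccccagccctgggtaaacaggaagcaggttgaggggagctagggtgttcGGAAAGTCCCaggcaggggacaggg
Tnfrsf12a: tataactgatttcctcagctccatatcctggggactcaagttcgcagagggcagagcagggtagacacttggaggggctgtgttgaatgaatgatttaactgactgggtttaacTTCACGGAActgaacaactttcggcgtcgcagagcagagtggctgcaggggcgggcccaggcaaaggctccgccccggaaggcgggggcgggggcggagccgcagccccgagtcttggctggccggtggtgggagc
Tnfrsf17: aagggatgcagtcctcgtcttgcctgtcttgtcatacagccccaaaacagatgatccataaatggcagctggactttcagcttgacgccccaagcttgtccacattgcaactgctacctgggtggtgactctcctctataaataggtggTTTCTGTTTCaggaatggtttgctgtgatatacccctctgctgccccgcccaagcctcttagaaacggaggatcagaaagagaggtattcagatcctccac
The windows are chr20:3634055-3634304 for Ltb, chr10:13213649-13213898 for Tnfrsf12a and chr10:4813773-4814022 for Tnfrsf17, all on the minus strand. Of the 39 genes, 28 had a sequence in that table. Both strands were searched for 2 forms of the kB site bound by NF-kB, GGGANNTTCC and GGGNNTTTCC, for the STAT site TTCNNNGAA, for the AP-1 site TGANTCA and for the interferon response core GAAANNGAAA. The first kB form was found in Ltb alone among the 28 members and in 1.08% of 33469 promoters. The second was found in Ltb, Tnfrsf4 and Traf3 and in 1.3% of all promoters, and in Ltb both forms match the same letters, which begin 25 bases before the start on the opposite strand. The STAT form was found in Lta, Ltb and Tnfrsf12a (7.67% of all promoters), the AP-1 form in Fas, Tnfrsf1b and Tnfrsf8 (6.34%), and the interferon core in Tnfrsf17 and Tnfrsf1b (3.41%). A match is a string of letters and not a measured binding site.

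The values below are log2 ratios of injured over sham muscle, from the background-corrected and loess-normalized spot intensities. A member counted as measured on a day if either channel of its spot was flagged well above background, which held for 30, 31, 31 and 32 of the 39 genes on days 1, 3, 7 and 14. On every array 26 members were measured, and 5 were measured on none: the ligands Cd40lg, Lta, Tnfsf11 and Tnfsf18 and the receptor Tnfrsf10b. Most receptors were measured (13, 14, 14 and 14 of 15), while the ligands were mostly near the detection limit (6, 6, 8 and 7 of 13). Only 2 ligands, Ltb and Tnfsf13, were above background in the sham channel of every array, against 9 receptors. Over the whole array the injured channel was above background more often, at 64.4%, 68.7%, 66.0% and 66.6% on days 1, 3, 7 and 14. The sham channel reached 47.3%, 41.1%, 34.7% and 46.3%, so detection in the injured channel alone was common beyond the members. The background correction adds 50 units of brightness to both channels, which pulls the ratio of a dim gene toward 0, so the scanner software's deposited ratio, which has no such offset, is given beside it for the dim members whose 2 ratios differ most. Spots of the 40 probes printed 10 times on each array had a standard deviation of 0.08, 0.10, 0.12 and 0.06 in log2 ratio on days 1, 3, 7 and 14, which is the error of a spot and not of a muscle.

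**Figure D1:**
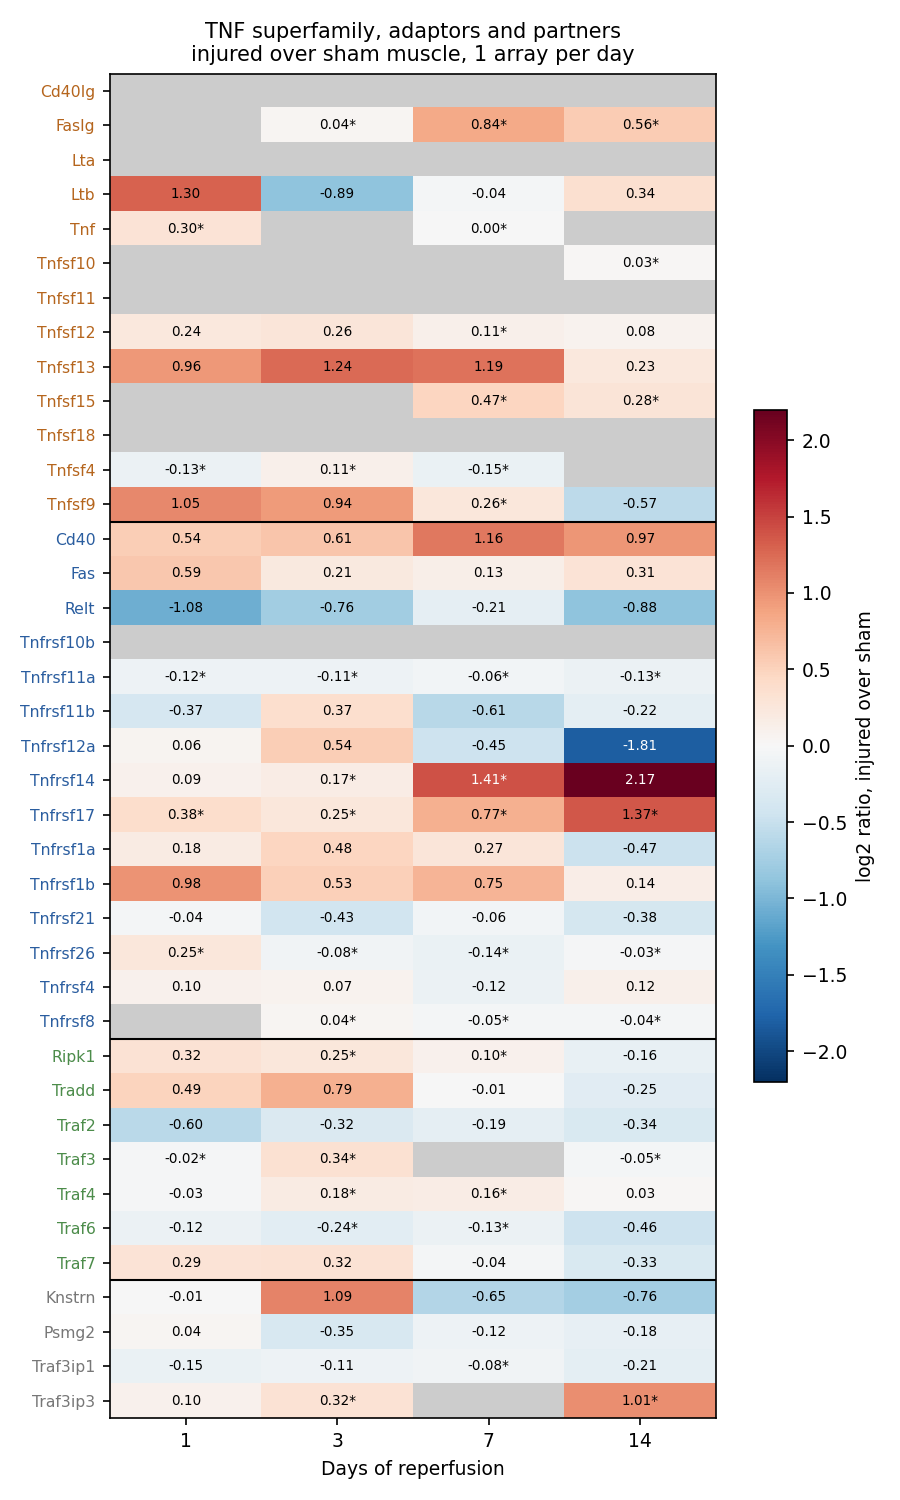
Log2 ratio of injured over sham muscle (colour and number) for the 39 genes (rows: ligands in brown, receptors in blue, adaptors in green, partners in grey letters) at 1, 3, 7 and 14 days of reperfusion, 1 array each. Grey cells were above background in neither channel, an asterisk marks a cell with 1 channel above background, and the strongest colours are Tnfrsf14 (2.17) and Tnfrsf12a (-1.81) on day 14.

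Few members reached a 2-fold difference from sham. On day 1 the ligands Ltb and Tnfsf9 were at least 2-fold higher, 2 of 30 measured members, against 1.24% of the 22947 genes measured. On day 3 Tnfsf13 and the partner Knstrn were, 2 of 31 against 2.47% of 24466 genes. On day 7 these were Tnfsf13, Cd40 and Tnfrsf14, 3 of 31 against 3.12% of 23488 genes, and on day 14 Tnfrsf14, Tnfrsf17 and the partner Traf3ip3, 3 of 32 against 3.15% of 23744 genes. Tnfrsf14 on day 7 and Tnfrsf17 and Traf3ip3 on day 14 counted as measured through the injured channel alone. At least 2-fold lower were Relt on day 1 (4.92% of all genes) and Tnfrsf12a on day 14 (1.57%), and no member on day 3 (3.95%) or day 7 (1.23%). In all, 10 of the 39 members passed the fold on some day: 3 ligands, 5 receptors, 2 partners and none of the 7 adaptors. The share of all genes that passed on some day was not counted, so nothing can be read from this number. Where both channels had to be above background, 2 of 24, 2 of 19, 2 of 16 and 1 of 23 members were at least 2-fold higher on days 1, 3, 7 and 14, beside 1.68%, 3.92%, 5.07% and 4.03% of all such genes, and 1, 0, 0 and 1 were lower, beside 6.62%, 6.42%, 2.26% and 2.24%. The counts are small, and with 1 array a day no spread between rats stands behind them.

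The count depends on the normalization. By the deposited ratio 6, 6, 5 and 6 members were at least 2-fold higher on days 1, 3, 7 and 14, out of 30, 31, 31 and 32 measured, beside 12.0%, 15.3%, 17.3% and 17.2% of all measured genes. The members at least 2-fold lower by the deposited ratio numbered 1, 1, 3 and 5, beside 8.54%, 7.42%, 8.06% and 6.42% of all genes. When each array was only centred on its median, with no loess, 11, 10, 6 and 5 members were higher, beside 21.8%, 17.2%, 11.6% and 12.2% of all genes, and 0, 0, 0 and 1 were lower, beside 1.89%, 1.61%, 0.332% and 0.413%. That centring put the median of all measured genes at 0.37, 0.29, 0.27 and 0.27, where the loess fit put it at 0.02, 0.03, 0.04 and 0.05 and the deposited ratio at 0.14, 0.18, 0.22 and 0.12.

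The lymphotoxin and TNF genes come first among the ligands. Ltb encodes lymphotoxin beta, a membrane protein that joins Lta in a complex read by the receptor Ltbr. Its log2 ratio was 1.30 on day 1, -0.89 on day 3, -0.04 on day 7 and 0.34 on day 14. Its log2 level in the sham channel was 10.08, 9.84, 9.73 and 9.83 on those days, a range of 0.35, while in the injured channel it was 11.38, 8.95, 9.69 and 10.18. The injured sample of day 1 thus lay above all 4 sham samples, that of day 3 below all of them, that of day 7 just below the lowest, and that of day 14 just above the highest. Whether the 4 sham samples are separate RNAs is not stated. For this and every other member, the share of all genes that lie outside the sham samples in this way was not counted. Under median centring alone the day 3 ratio of Ltb was -0.01. Lta, its partner in the complex, was above background on no array, and Ltbr, a receptor outside the name rule, had ratios of 0.22, -0.13, -0.11 and -0.61.

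Tnf itself was at the limit of detection. The sham channel was not above background on any array, and the injured channel was above it only on days 1 and 7. The ratio was 0.30 on day 1 and 0.00 on day 7, and the deposited ratio was 1.57 and 0.81. Against the lowest signal called above background, the day 1 value corresponds to 1.13-fold, which is not a strict lower bound. A change of Tnf transcript below the limit of detection could not be seen here, and the arrays say nothing of the protein.

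Tnfsf13, also called APRIL, a growth factor for B cells and plasma cells, was the ligand with the most lasting difference. Its ratio was 0.96, 1.24, 1.19 and 0.23 on days 1, 3, 7 and 14. The sham level was 8.56, 8.65, 8.56 and 8.33, and the injured level 9.52, 9.89, 9.76 and 8.55. On days 1, 3 and 7 the injured sample lay above every sham sample, and on day 14 it lay among them. The deposited ratio gave 1.2, 1.44, 1.36 and 0.22.

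Tnfsf9, the 4-1BB ligand that costimulates T cells, had ratios of 1.05, 0.94, 0.26 and -0.57. Its sham level moved nearly as much, from 7.65 on day 1 to 7.06, 6.09 and 7.60, with the day 7 spot not above background. The injured level was 8.70, 8.0, 6.34 and 7.02, so the samples of days 1 and 3 lay above all sham samples and the other two did not. With all 4 sham samples averaged as the reference, the ratio was 1.60, 0.90, -0.76 and -0.08. The sign of day 7 thus rests on which sham sample is used. Over 12319 genes the day 7 sham channel stood apart, with correlations of 0.963 to 0.975 with the others. Those of days 1, 3 and 14 correlated with each other at 0.987 to 0.993. This bears on every ratio of day 7.

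The other ligands stayed under 2-fold by this ratio. Faslg, the ligand that triggers death through Fas and is made by cytotoxic lymphocytes, was above background in no sham channel, and in the injured channel on days 3, 7 and 14. Its ratio was 0.04, 0.84 and 0.56 on those days, and its deposited ratio 0.54, 3.06 and 2.19. As folds the first set is 1.03, 1.79 and 1.48, each against a sham level that was not above background. Tnfsf15 (TL1A), a costimulator of T cells, was above background only in the injured channel of days 7 and 14, with ratios of 0.47 and 0.28 and deposited ratios of 0.42 and 1.98. Against the lowest signal called above background the day 14 value is 1.12-fold, and that of day 7 is no fold above 1. Tnfsf12 (TWEAK) had ratios of 0.24, 0.26, 0.11 and 0.08, and deposited ratios of 0.42, 0.55, 0.21 and 0.18. Tnfsf10 (TRAIL) was above background only in the injured channel of day 14, with a ratio of 0.03, and Tnfsf4 (OX40 ligand) ranged from -0.15 to 0.11 on the 3 days it was measured.

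**Figure D2:**
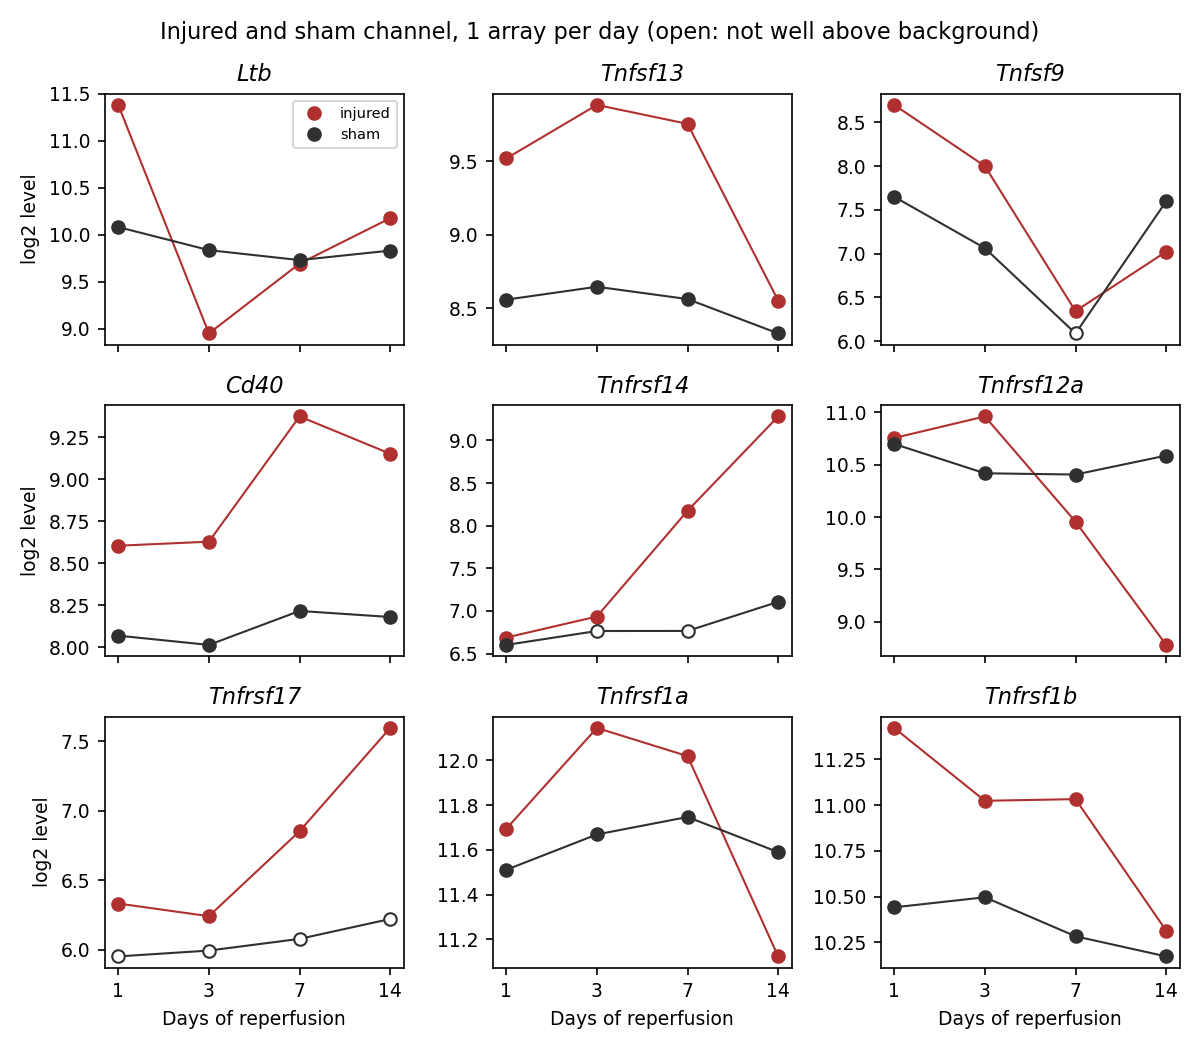
Log2 level of the injured channel (red) and the sham channel (black) against days of reperfusion for 9 members, with 1 sample per point. Levels follow loess within arrays and quantile normalization, between arrays, of the mean of the 2 channels. Open points were not well above background, and vertical axes differ between panels. Ltb, Tnfsf13, Cd40 and Tnfrsf1b part from sham on day 1, Tnfrsf14 and Tnfrsf17 on day 7, and the ratio of Tnfrsf12a on day 14 is -1.81.

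Among the receptors for TNF, Tnfrsf1a carries a death domain and is found on most cells, while Tnfrsf1b lacks one, binds Traf2 and is found mainly on immune and endothelial cells. Tnfrsf1b had ratios of 0.98, 0.53, 0.75 and 0.14, with sham levels from 10.17 upward over a range of 0.32 and injured levels between 10.31 and 11.42. Its injured samples of days 1, 3 and 7 lay above all sham samples. Tnfrsf1a had ratios of 0.18, 0.48, 0.27 and -0.47, and its injured sample of day 14 lay below all 4 sham samples. Under median centring alone that last ratio was 0.28, so its sign depends on the scaling. Neither TNF receptor reached 2-fold, and over the 4 arrays the mean of Tnfrsf1b was 0.60 (SE 0.15, limma adjusted p = 0.155) and that of Tnfrsf1a 0.12 (SE 0.17, adjusted p = 0.711).

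Tnfrsf12a (Fn14), the TWEAK receptor, had the lowest ratio of any member on any day, on day 14. Its ratio was 0.06, 0.54, -0.45 and -1.81 on days 1, 3, 7 and 14. The sham level kept within 10.41 to 10.70, and the injured level was 10.76, 10.96, 9.96 and 8.78. The injured samples of days 1 and 3 lay above all sham samples and those of days 7 and 14 below all of them. On day 1 the ratio of 0.06 was smaller than the spot standard deviation of 0.08 on that array. The second probe gave 0.18, 0.36, -0.47 and -1.24, so both probes shown above passed 2-fold on day 14. Under median centring alone the ratio was 1.28, 1.5, 0.27 and -1.13, with a positive value on day 7, and the deposited ratio on day 14 was -2.06. On the same arrays its dim ligand Tnfsf12 differed from sham by at most 0.26, and by at most 0.55 by the deposited ratio and 0.72 under median centring.

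Tnfrsf14 (HVEM), the receptor of lymphotoxin alpha and LIGHT and a partner of the inhibitory protein BTLA, was at sham level early and high late. Its brighter probe had ratios of 0.09, 0.17, 1.41 and 2.17. The sham spot was not well above background on days 3 and 7, so the 2.65-fold of day 7 rests on an undetected sham signal. The second probe gave -0.11, -0.10, 0.50 and 0.48, under 2-fold on both late days. The deposited ratios were 3.61 and 3.22 on days 7 and 14 for the first probe and 1.22 and 1.25 for the second. Both probes thus placed days 7 and 14 above days 1 and 3, and on day 14 they gave 2.17 and 0.48.

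Tnfrsf17 (BCMA), a receptor for Tnfsf13 that marks plasma cells, was above background in the injured channel of every array and in no sham channel. Its ratio was 0.38, 0.25, 0.77 and 1.37. Against the lowest signal called above background the day 14 value is 2.58-fold. This is not a strict lower bound, since on that array the sham spot of Traf3ip3, at a level of 6.69, was still not above background. The deposited ratio of Tnfrsf17 was 1.52, 0.59, 2.11 and 4.34. Its ligand Tnfsf13 had its lowest ratio, 0.23, on day 14, when Tnfrsf17 was highest, but on day 7 both were above sham, Tnfsf13 with 1.19. A plasma cell list was added after the values of Tnfrsf17 were seen. On day 14 Jchain had a ratio of 1.11 and Mzb1 one of 0.75, both with the sham spot below background, while Sdc1 had -1.78. Of its 5 genes on the array 4 were measured on that day, 1 at least 2-fold higher and 1 lower, with a median of 0.40. The summed brightness of the list was 2030 units in the injured channel against 5710 in sham. Of the 5 genes only 1 was above background in sham on that day, so the sum does not stand for the list. The part of these genes in the Tnfrsf17 result was not tested.

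Cd40, the receptor through which T cell help reaches B cells, macrophages and endothelium, was above sham on every day. Its ratio was 0.54, 0.61, 1.16 and 0.97, with sham levels of 8.01 to 8.22 and injured levels of 8.60 to 9.37. How many of all genes had injured and sham levels apart in this way was not counted. Its mean over the 4 arrays was 0.82 (SE 0.13), with a limma adjusted p of 0.104. The second, dimmer probe gave 0.07, 0.03, 0.30 and 0.14, under 2-fold on day 7 as well. Its ligand Cd40lg was above background on no array.

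Relt, a receptor of lymphoid tissue whose ligand is not settled, was below sham on each array. Its ratio was -1.08, -0.76, -0.21 and -0.88, and its deposited ratio -1.51, -1.04, -1.09 and -1.5. The sham level was 7.97 to 8.18. The injured level was 6.95 to 7.98, so the highest injured sample overlapped with the lowest sham sample. The mean was -0.73 (SE 0.16, limma adjusted p = 0.135). Under median centring alone the values were -0.44, -0.14, 0.34 and -0.41, so the call of day 1 is lost and the sign of day 7 turns.

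The death receptors and the bone axis stayed closer to sham. Fas had ratios of 0.59, 0.21, 0.13 and 0.31, with injured levels of 8.57 to 8.96 and sham levels of 8.26 to 8.53. Its mean was 0.31 (SE 0.10, limma adjusted p = 0.189). Tnfrsf21 (death receptor 6) had -0.04, -0.43, -0.06 and -0.38. Tnfrsf11a (RANK), the receptor that drives osteoclasts, was above background in the injured channel of every array and in no sham channel, with ratios of -0.13 to -0.06. Its decoy Tnfrsf11b (osteoprotegerin) had -0.37, 0.37, -0.61 and -0.22, and the ligand Tnfsf11 (RANKL) was above background nowhere. Of the 4 osteoclast markers Ctsk had ratios of 2.34 and 2.19 and Acp5 2.37 and 1.86 on days 7 and 14, Calcr was above background in the injured channel alone, and Oscar in neither. The remaining receptors, Tnfrsf4 (OX40), Tnfrsf8 (CD30) and Tnfrsf26, lay between -0.14 and 0.25 on the days they were measured. By the deposited ratio Tnfrsf8 had 1.30, 0.86 and 0.24 on days 3, 7 and 14 and Tnfrsf26 had 0.84 on day 1, each with the sham spot not above background.

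None of the 7 adaptors reached 2-fold on any day by the normexp and loess ratio. By the deposited ratio Traf3 was higher on day 3, Traf7 lower on day 7 and Traf6 lower on day 14, and under median centring alone Tradd and Traf7 were higher on days 1 and 3. Tradd, which docks on the death domain of Tnfrsf1a, had ratios of 0.49, 0.79, -0.01 and -0.25, with injured levels from 9.94 to 11.36 and sham levels from 10.19 to 10.72. Its second probe gave 0.40, 0.13, -0.39 and -0.34. Ripk1, the kinase recruited next, had 0.32, 0.25, 0.10 and -0.16, and deposited ratios of 0.79, 0.89, 0.60 and -0.47. Traf2, the adaptor of Tnfrsf1b and of the Tradd complex, was below sham on every array with -0.60, -0.32, -0.19 and -0.34 (mean -0.36, SE 0.09, limma adjusted p = 0.151), but under median centring alone it was above sham on every array. Traf3, which restrains non-canonical NF-kB signalling, was above background in no sham channel and had ratios of -0.02, 0.34 and -0.05 on days 1, 3 and 14, with a deposited 1.15 on day 3. Traf4 lay between -0.03 and 0.18. Traf6, the ubiquitin ligase behind Cd40 and Tnfrsf11a, had -0.12, -0.24, -0.13 and -0.46, and its deposited ratio on day 14 was -1.84. Traf7 had 0.29, 0.32, -0.04 and -0.33. Its deposited ratio on day 7 was -1.65 by the brighter probe and 0.18 by the other, and the sham level of the brighter probe was 8.09 on that day against 9.48 at its highest.

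Among the partners, Knstrn, a mitotic spindle gene, had ratios of -0.01, 1.09, -0.65 and -0.76. Its injured sample of day 3 lay above all sham samples (7.32 to 7.51) and those of days 7 and 14 below them. Traf3ip3, which is expressed in lymphocytes, was 2.02-fold above sham on day 14, with deposited ratios of 1.84 on day 3 and 2.16 on day 14. Its sham spot was above background on day 1 alone. Psmg2 ranged from -0.35 to 0.04 and Traf3ip1 from -0.21 to -0.08.

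Ligands were next set against receptors. On day 1 the median ratio was 0.63 over 6 measured ligands and 0.10 over 13 receptors, a difference of 0.53. On day 3 the medians were 0.18 and 0.19 (difference -0.01), on day 7 0.18 and -0.05 (0.24), and on day 14 0.22 and -0.04 (0.26). The median of all measured genes was 0.02 to 0.05. On each day at least 1 receptor lay above most ligands and the values of both roles overlapped. Of the measured ligands 2, 2, 6 and 3, and of the measured receptors 3, 5, 5 and 4, were above background in the injured channel alone, and none in the sham channel alone. The medians therefore rest in part on genes admitted by the injured channel alone, which can favour high ratios. Some of these genes, among them Tnfrsf11a, still had negative ratios. The medians do not speak for all 13 ligands. With both channels above background the differences were 0.91, 0.23, 0.64 and 0.20, over 4, 4, 2 and 4 ligands and 10, 9, 9 and 10 receptors. With Psmg2, listed as Tnfsf5ip1, counted as a ligand the day 1 difference was 0.21, and by the deposited ratio it was 1.14. Under median centring alone the differences of days 7 and 14 were -0.03 and 0.05, so the sign of day 7 depends on the scaling.

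**Figure D3:**
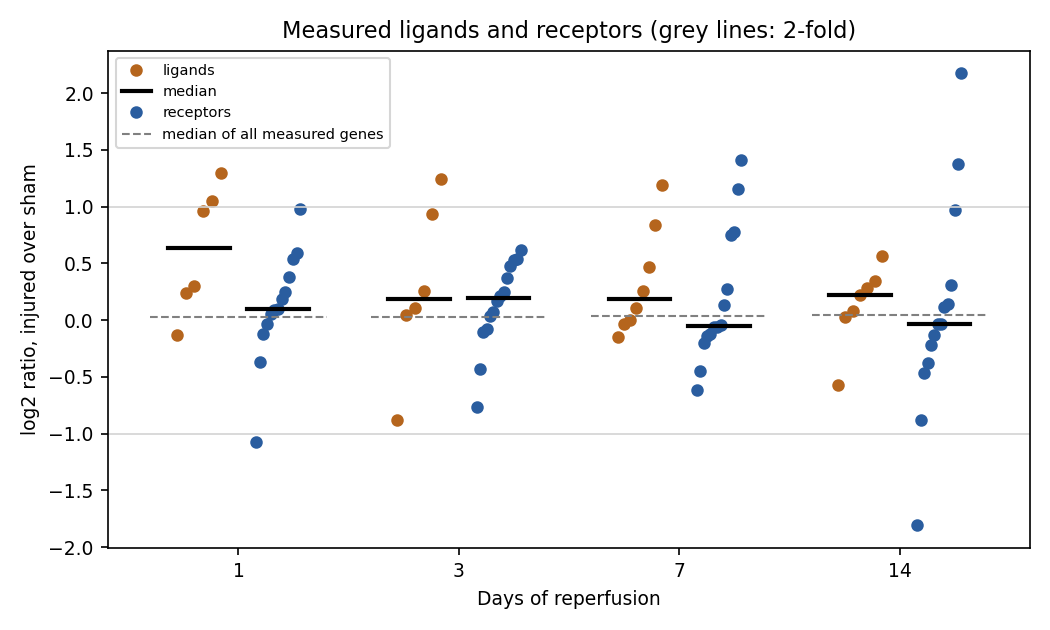
Log2 ratio of injured over sham for each measured ligand (brown) and receptor (blue) by days of reperfusion, with the median of each role (black bars), the median of all measured genes (dashed) and the 2-fold limits (grey). The points of both roles overlap on every day, and the ligand median stands apart on day 1 (0.63 against 0.10).

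For the 26 members measured on all 4 arrays, their mean ratio was compared with 0, with limma and Benjamini-Hochberg adjustment over 20528 genes. The test treats 4 different times as replicates and asks only whether a gene differs from sham in the same direction throughout. No member passed an adjusted p of 0.05, while 0.0244% of all genes passed as higher and 0.156% as lower. At an unadjusted p under 0.05 there were 8 members, and 21.8% of all genes: Cd40, Fas, Tnfsf13, Tnfrsf1b and Tnfrsf17 with a mean above 0, and Relt, Traf2 and Traf6 with a mean below it. The mean of Tnfsf13 was 0.90 (SE 0.20, adjusted p = 0.133). By the deposited ratio the same test called Cd40 higher and Relt lower, beside 2.91% of all genes higher and 0.867% lower. Under median centring alone it called 11 members higher and 0 lower, beside 40.9% and 0.643% of all genes.

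The rest of the pathway was read from gene lists. Of 22 NF-kB pathway genes on the array, 19 or 20 were measured on a day and none passed 2-fold in either direction, with medians of 0.10, -0.03, 0.08 and 0.05. Over all genes 1.24% to 3.15% were higher and 1.23% to 4.92% lower. By the deposited ratio 2, 2, 1 and 1 of them were higher and 0, 0, 1 and 0 lower. Of 15 genes of death signalling, Daxx, a protein that binds Fas, was the one that passed by the normexp and loess ratio. It had 1.75 on day 7 and 1.03 on day 14, and the list's medians were 0.29, 0.16, 0.18 and -0.17. By the deposited ratio 3, 2, 3 and 3 of the list were higher and 0, 1, 1 and 3 lower. Beside them stand 12.0%, 15.3%, 17.3% and 17.2% of all genes higher and 8.54%, 7.42%, 8.06% and 6.42% lower. Of 6 genes that shed ligands and receptors none passed, with medians of -0.10, -0.12, -0.05 and -0.16. By the deposited ratio 1 of these was lower on day 14.

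A list of genes known as TNF targets was read as well. Of 26 on the array, 6, 4, 3 and 3 were at least 2-fold higher and 2, 2, 4 and 5 at least 2-fold lower on days 1, 3, 7 and 14, out of 24, 24, 23 and 23 measured, with list medians of 0.39, 0.02, 0.01 and -0.14. Over all measured genes 1.24%, 2.47%, 3.12% and 3.15% were higher and 4.92%, 3.95%, 1.23% and 1.57% lower. By the deposited ratio 10, 5, 5 and 4 of the list were higher and 3, 2, 4 and 7 lower. Over all genes 12.0%, 15.3%, 17.3% and 17.2% were higher by that ratio and 8.54%, 7.42%, 8.06% and 6.42% lower. The chemokine Cxcl10 had ratios of 2.44, 0.57, 4.88 and 3.12, and Ccl5, which draws T cells, 0.09, 1.23, 2.83 and 3.58. The monocyte chemokine Ccl2 had 2.08, -0.14, -1.04 and -2.56, with a saturated spot on day 1. Mmp3, a matrix protease, had 1.89, -0.59, -2.01 and -2.22, and Vcam1, an adhesion molecule of endothelium, -1.05, 1.72, 2.10 and 1.58. The list thus held genes with opposite courses. All of these genes also answer to other signals, and their tie to Tnf was not tested.

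Markers of the cells in the samples shifted on the same arrays. The label of the tissue was borne out by 7 muscle fibre markers, all above background in both channels of every array. On days 1 and 3 all 7 were at least 2-fold lower, with medians of -3.15 and -4.29, and their summed brightness was 41712 and 22551 units against 399994 and 398645 in sham. On day 7 there was 1 marker at least 2-fold higher and 1 lower, with a median of -0.485. On day 14 there were 3 higher and 0 lower, with a median of 0.33. On days 7 and 14 the sums were 178627 and 275227 units against 220142 and 162568, so the sham sum was lower on these arrays than on those of days 1 and 3. Of 6 neutrophil markers 2 passed 2-fold on day 1, S100a9 and S100a8 at 2.62 and 2.50, with a list median of 0.78 and a sum of 11233 units against 2290. That was the day when Ltb, Tnfsf9 and Tnfrsf1b had their highest ratios. Macrophage markers summed to 24749, 27156, 59934 and 37517 units against 15165 to 19066 in sham, with 2, 3, 6 and 3 of 10 above sham by 2-fold or more, 1, 2, 3 and 3 below it by as much, and medians of 0.40, 0.42, 1.23 and -0.36. The complement genes C1qa and C1qb were among the higher on days 3, 7 and 14, and the scavenger receptor Cd163 among the lower. The 5 fibroblast markers had medians of -0.69, 1.61, 2.66 and 1.96 and sums of 17262, 92283, 120469 and 121464 units against 56268, 34733, 26277 and 25007 in sham. Endothelial markers had medians of 0.07, 0.13, 0.31 and 0.14, with 1 of 6 at least 2-fold higher on days 7 and 14, and the 3 muscle precursor markers had medians of -0.18, 0.27, 0.76 and 0.27. No dendritic cell marker passed 2-fold by the normexp and loess ratio. Of the T cell markers 2 of 5 on day 7 and 2 of 6 on day 14 were at least 2-fold higher, Cd3g with 2.89 and 3.44 and Cd3d with 2.00 and 2.65, while Cd8a was lower with -1.57 and -1.88, and the list medians were 0.50 and 0.78. On both days 4 of 5 natural killer cell markers were at least 2-fold higher, among them Klrd1 with 1.63 and 2.58. Those were the days on which Faslg, Tnfrsf14 and Tnfrsf17 had their highest ratios. The T cell list summed to 5134 and 5833 units against 2693 and 2426, and the natural killer list to 1670 and 2095 units against 661 and 615. By the deposited ratio 5 of 6 neutrophil markers and 1 dendritic cell marker were higher on day 1, and 4 of 6 endothelial markers on day 7. The T cell markers had 4 and 5 higher and 1 lower on days 7 and 14 by that ratio. Over all genes 12.0%, 17.3% and 17.2% were higher by it on days 1, 7 and 14. The part of these shifts in the members' ratios was not tested.

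The sizes of several members rest on the processing. The largest gaps between the 2 ratios were those of Tnfrsf17 on day 14 (1.37 by normexp and loess, 4.34 deposited), Faslg (0.84 and 3.06) and Tnfrsf14 (1.41 and 3.61) on day 7, where the sham spot was not above background. Of members with both channels above background, Ltb on day 1 had 1.30 and 1.4 and Tnfsf13 on day 3 had 1.24 and 1.44, but Traf7 on day 7 had -0.04 and -1.65 and Relt on day 7 had -0.21 and -1.09.

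**Figure D4:**
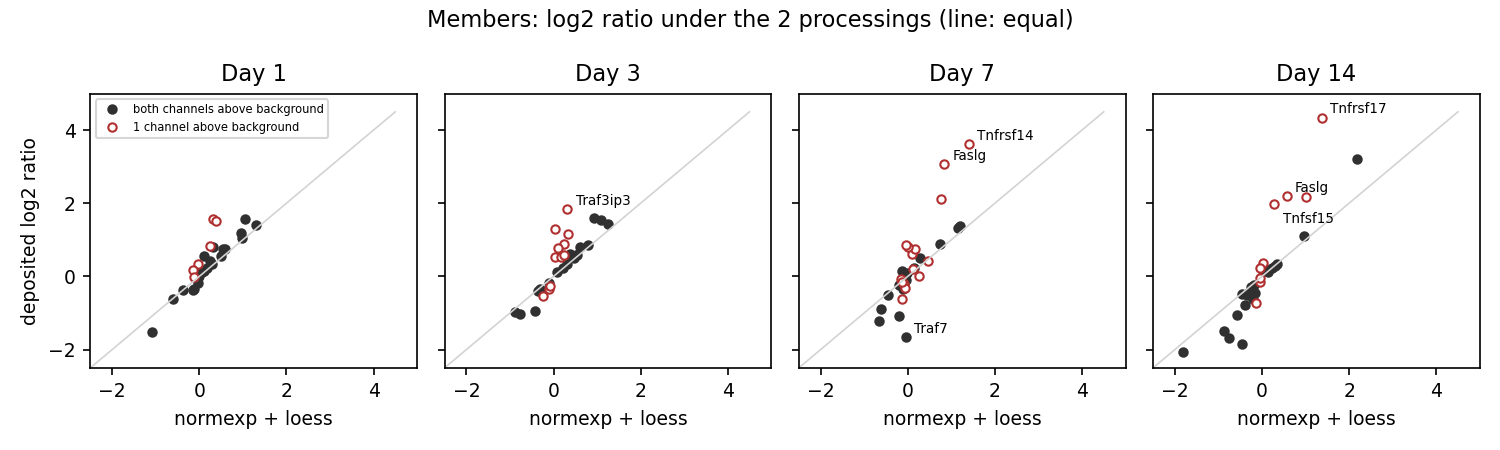
Deposited log2 ratio of the scanner software (vertical) against the log2 ratio after normexp and loess (horizontal) for the measured members, 1 panel per day, with the line of equal values. Filled points had both channels above background and open ones 1, and members more than 1.5 apart are named: Faslg, Tnfrsf14, Tnfrsf17, Tnfsf15 and Traf3ip3 lie above the line, each with a single channel above background, and Traf7 on day 7 lies below it.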

How the data were processed

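Transcripts were measured on 4 Agilent rat arrays, with a single array per day (1, 3, 7 and 14). Per the labels, injured RNA carried Cy5 and sham RNA Cy3, both labelled by in vitro transcription. Image analysis used Feature Extraction 10.5.1.1 per the file headers, or 9.5.3 per the submitters' processing notes. Each spot has a deposited intensity (mean brightness) and a local background, neither normalized. A deposited log10 ratio, red to green, had background subtracted and dyes normalized per the file headers. It was multiplied by log2(10). The deposited value table holds log2 ratios that match within 0.005. Deposited flags mark spots above background, saturated or outlying. Per the file headers, 3 arrays were scanned in 1 session and the day 14 array in another, so session and day cannot be told apart there.

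With R 4.3.3 and limma 3.58.1, background was corrected by normexp with an offset of 50, and each array normalized by loess with control and outlier spots at weight 0. Spots of a probe were averaged, and the brightest of a gene's probes stood for it. After loess, the mean log2 level of the 2 channels of a spot was quantile-normalized between arrays. Each channel's level was rebuilt from that mean and the ratio, so a sham level depends in part on the injured channel of its array. A fold against the lowest signal called above background takes that signal in place of a sham level below it. Sham spots not above background can lie above that signal, so such a fold is not a strict lower bound. A dim sham spot above that signal keeps its own level, so its fold is the plain ratio. A 2-fold difference was counted per day, and the mean of 4 arrays was tested with limma and Benjamini-Hochberg adjustment. The steps were tested on simulated data, read at bright spots and with a separate dye trend on each array. Dim spots and a dye trend shared by all 4 arrays were not covered by that test. Of the member probes, 28 were named by accession, 15 by symbol and 2 by an older symbol, from a RefSeq table of GRCr8.

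Members, roles and gene lists were chosen with earlier results of these data known. Named are all members past 2-fold on any day, a fixed set of main ligands, receptors and adaptors (of which Tnfsf13b stands under another name and Traf1 was not matched), up to 5 genes of each list, and probes that disagree. Whether samples came from separate rats is not stated, so the p-values measure only the spread between these 4 arrays. The B cell marker list is not reported here.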

Additional observations from a re-analysis of the deposited data

How the results depend on the processing

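No paired analysis was possible because each day is a single sample and replicate numbers pair nothing across days. Within an array, injured and sham are already set against each other as a ratio. Alternatives were the deposited ratio, median centring without loess, plain background subtraction, the mean of the 4 sham channels as reference, both channels above background, and the mean over a gene's probes. Members at least 2-fold higher numbered 6, 6, 5 and 6 on days 1, 3, 7 and 14 by the deposited ratio and 11, 10, 6 and 5 under median centring. The day 7 count was 6 with background subtracted (4.75% of all genes) and 1 as a mean over probes (2.83%), and the day 14 count was 1 with both channels above background (4.03%). Members at least 2-fold lower numbered 1, 3 and 5 on days 3, 7 and 14 by the deposited ratio (7.42%, 8.06% and 6.42% of all genes). They numbered 0 on day 1 under median centring (1.89%) and 3 on day 14 with background subtracted (2.43%). The ligand median minus the receptor median on day 1 was 1.14 by the deposited ratio, 0.66 under median centring, 0.63 with background subtracted, 0.91 with both channels above background and 0.21 with Tnfsf5ip1 as a ligand, an alternative chosen after seeing the data. On day 3 it was 0.16 by the deposited ratio, -0.17 under median centring, 0.08 against the mean sham, 0.23 with both channels above background and 0.10 as a mean over probes. On day 7 it was 0.13, -0.03, 0.44 with background subtracted, 0.04 against the mean sham and 0.64 with both channels above background. On day 14 it was 0.05 under median centring. The test of the mean called 2 members by the deposited ratio (2.91% of all genes higher, 0.867% lower), 11 under median centring (40.9% higher, 0.643% lower), and 0 without any 1 of the 4 arrays. Among 12 single values of named members past 2-fold, those of Tnfrsf14 on day 7 and Tnfrsf17 and Traf3ip3 on day 14 have no value where both channels must be above background. Under the alternatives that gave a value, 3 lay under 2-fold and none turned sign: Relt on day 1 under median centring (-0.44), and Cd40 (0.73) and Tnfrsf14 (0.95) on day 7 as means over probes. The cause of these differences was not tested, except that fewer genes enter where both channels must be above background. Signal over background limits most ligands. Folds of dim members rest on the lowest signal called above background or on a sham level not above background.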

Other observations

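A set of 4 genes of the superfamily stood on the array under names outside the rule and were found after the data were seen. Tnfsf13b (BAFF), a survival factor of B cells that shares receptors with Tnfsf13, was above background in the injured channel of every array and in no sham channel, with log2 ratios of -0.08, 0.29, 0.23 and 0.11 on days 1, 3, 7 and 14. Tnfrsf18 (GITR), a receptor of regulatory T cells, had 0.33, -0.24, 0.32 and 0.75, with both channels above background on days 1 and 14. Tnfrsf9 (4-1BB), the receptor of Tnfsf9, lay between -0.06 and 0.03 on the 3 days it was measured, and Tnfrsf19 was above background on no array. Eda2r, a receptor of ectodysplasin in muscle, had -0.36, -0.21, 0.20 and 0.01, and Fadd, the adaptor that links Fas and Tradd to caspases, 0.41, 0.29, -0.37 and -0.75.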
